A study of Mus musculus with 9 samples.

Results

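Gbp2, Gbp3, Gbp7, Iigp1, Irgm1, Igtp, Ifit1, Ifit3 and Bst2 are 9 mouse genes known to be induced by interferons. They were chosen with earlier results of these data known and taken by name from the 40213 genes counted in ventral hippocampus of 9 mice. All 9 passed the filter on low counts that left 16106 genes to test. The mice were wild-type C57BL/6J males, 8 weeks old when they were housed. SUS+LE mice (n = 3) were labelled stress-susceptible, were restrained in tubes for 2 hours a day on 14 days, and then had 2 weeks of treadmill running at low intensity. SUS mice (n = 3) were labelled stress-susceptible after the same restraint and did no exercise. SED mice (n = 3) were sedentary and untreated. All 9 libraries carried the same batch label and were made from total RNA of bulk tissue, 1 library per mouse. How susceptibility was scored and how long after the last run the tissue was taken are not given in the sources used here.

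Interferons are secreted proteins that cells release when they sense viral or bacterial nucleic acids, and T and NK cells release the type II form. Binding to the receptors activates JAK kinases, and the signal reaches promoters through DNA elements named the interferon-stimulated response element (ISRE) and the gamma-activated site (GAS). The guanylate-binding proteins (Gbp2, Gbp3, Gbp7) and the immunity-related GTPases (Iigp1, Irgm1, Igtp) act on vacuoles that hold intracellular pathogens. The IFIT proteins bind viral RNA, and tetherin, the product of Bst2, holds budding virions at the cell surface. In the brain, microglia, astrocytes and endothelial cells are known to make these transcripts in response to interferon.

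The promoters are shown because the 9 genes are grouped by their induction through these elements. RefSeq promoters of GRCm38.p6, from 250 bases before to 50 bases after the transcript start, were found for 8 of the 9 members (all but Iigp1), and the counts themselves were made on GRCm39. The ISRE core was searched on both strands as GAAA, any 2 bases and GAAA again, which reads as TTTC, any 2 bases and TTTC on the other strand. All 8 members with a promoter entry had a match, against 3.44% of the 32851 promoters and 3.99% of the 27025 genes in the RefSeq table. The stretches around the matches, each read 5′ to 3′ along the gene's strand with the ISRE core in capitals, were as follows.
Gbp2 (chr3:142620589-142620628, plus strand): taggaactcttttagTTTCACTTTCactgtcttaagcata
Gbp3 (chr3:142559984-142560029, plus strand): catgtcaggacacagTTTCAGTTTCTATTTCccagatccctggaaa
Gbp7 (chr3:142530268-142530307, plus strand): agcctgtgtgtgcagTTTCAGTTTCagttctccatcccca
Irgm1 (chr11:48871420-48871465, minus strand): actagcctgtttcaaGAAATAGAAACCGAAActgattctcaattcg
Igtp (chr11:58199507-58199546, plus strand): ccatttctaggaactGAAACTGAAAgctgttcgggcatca
Ifit1 (chr19:34640770-34640828, plus strand): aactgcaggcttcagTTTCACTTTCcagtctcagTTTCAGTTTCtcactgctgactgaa
Ifit3 (chr19:34583358-34583431, plus strand): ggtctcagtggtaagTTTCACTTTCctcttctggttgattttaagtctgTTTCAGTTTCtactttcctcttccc
Bst2 (chr8:71537572-71537617, minus strand): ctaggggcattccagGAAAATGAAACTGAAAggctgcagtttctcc

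Gbp3, Irgm1 and Bst2 each held 2 overlapping cores, and Ifit1 and Ifit3 each held 2 separate ones. The 2 cores of Ifit1 and of Ifit3 had the same letters in the same order, TTTCACTTTC and then TTTCAGTTTC. In the 5 GTPase promoters the first core began at position -59 in Gbp2, -45 in Gbp3, -53 in Gbp7, -30 in Irgm1 and -34 in Igtp, counted from the start. In Ifit1, Ifit3 and Bst2 the first core began farther out, at -104, -156 and -130. The GAS was searched as TTCNNNGAA, which reads the same on both strands. It was found in 3 of the 8 members (Gbp7, Igtp and Bst2), against 8.3% of all promoters and 9.55% of the 27025 genes. Gbp3 had a second RefSeq promoter with no match to either motif, and a match describes letters in this window and does not show binding.

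**Figure D1:**
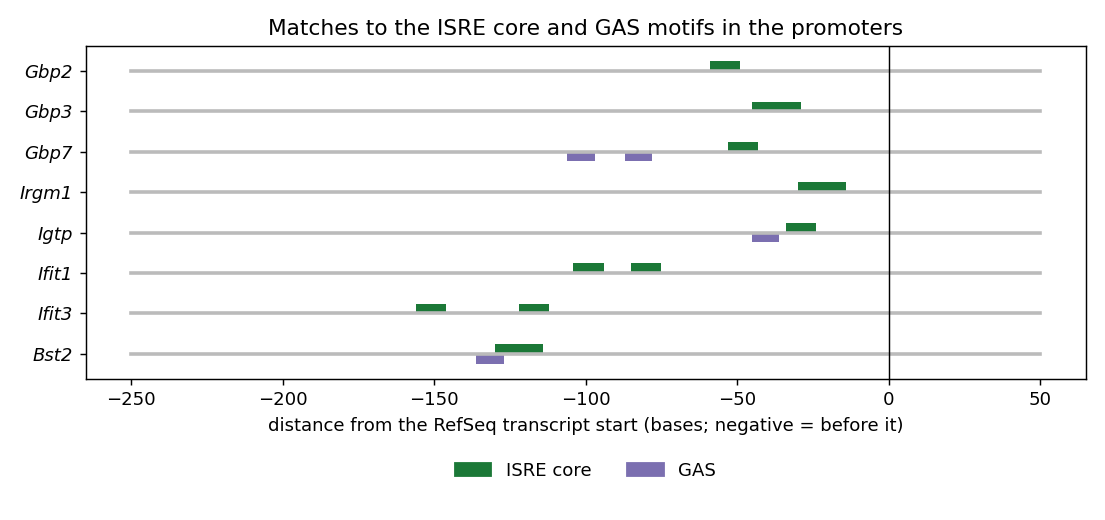
Position of ISRE core (green, above each line) and GAS (purple, below) matches in the RefSeq promoters of 8 genes; the x axis is the distance in bases from the transcript start, and each grey line is 1 promoter of 300 bases. The cores of the 5 GTPase genes begin between -59 and -24, and the first cores of Ifit1, Ifit3 and Bst2 begin at -104, -156 and -130.

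The libraries held 14172344 to 15582304 counts each, and 1 count was worth about 0.065 to 0.0702 CPM. CPM are counts scaled to a common library size, after scaling each library by its TMM factor. Library pairs of 1 group differed by 2.7 to 14.6 times the sampling variance in a chi-square test over genes, so no library was counted as a copy. Hippocampal neuron markers were present at like sums in all groups (4970 to 5440 CPM in SUS+LE, 4980 to 5410 CPM in SUS and 5000 to 5180 CPM in SED). Snap25 gave the largest part of that sum, with means of 2590, 2480 and 2420 CPM in SUS+LE, SUS and SED. Single markers differed more: Wfs1 had means of 94.1, 132 and 85.8 CPM and Prox1 100, 79.2 and 105 CPM. In SUS against SED 3 of the 17 markers were higher and 2 lower at an unadjusted edgeR p under 0.05. Of tested genes 6.83% and 6.26% were. How alike the dissections were was not tested. Choroid plexus markers, a neighbouring tissue, set libraries apart: SUS+LE 1, SUS+LE 3 and SUS 1 had 269, 225 and 146 CPM summed over 12 markers, and the other 6 libraries had 2290 to 8630 CPM. By group the sums were 225 to 2290 CPM in SUS+LE, 146 to 8630 CPM in SUS and 4430 to 6430 CPM in SED. All 12 markers had fold changes below 0 in SUS+LE against SED (median log2 fold change -2.51), in SUS+LE against SUS (-2.04) and in SUS against SED (-0.404). SUS+LE 1, SUS+LE 3 and SUS 1 were the lowest in the choroid plexus transcript Ttr, which is 1 of these 12 markers and so no separate observation. A fit without them leaves 1 SUS+LE library and is given by fold changes only, in the closing section.

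The GTPase genes stood higher in SUS+LE than in SUS, by 1.36 to 2.25 times, and none of these differences passed the test over all genes. Of the 9 members, 0 had an edgeR adjusted p under 0.05 in SUS+LE against SUS, where 0% of the tested genes did. At an unadjusted edgeR p under 0.05, 5 members were higher in SUS+LE, all of them among the 6 GTPases (Gbp3, Gbp7, Iigp1, Irgm1 and Igtp), against 7.2% of tested genes. In the same 5 genes every SUS+LE library lay above every SUS library, which 8.61% of tested genes did. The median log2 fold change was 0.70 over the 9 members, 0.78 over the 6 GTPases and 0.00112 over all tested genes. The members were chosen with earlier results of these data known, so these shares and medians are descriptions and not a test. DESeq2 called 180 of 16106 genes in this comparison, 1.12%, but its filter on mean counts left all 9 members without an adjusted p. With that filter off, a step chosen after seeing the data, 0 members passed.

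**Figure D2:**
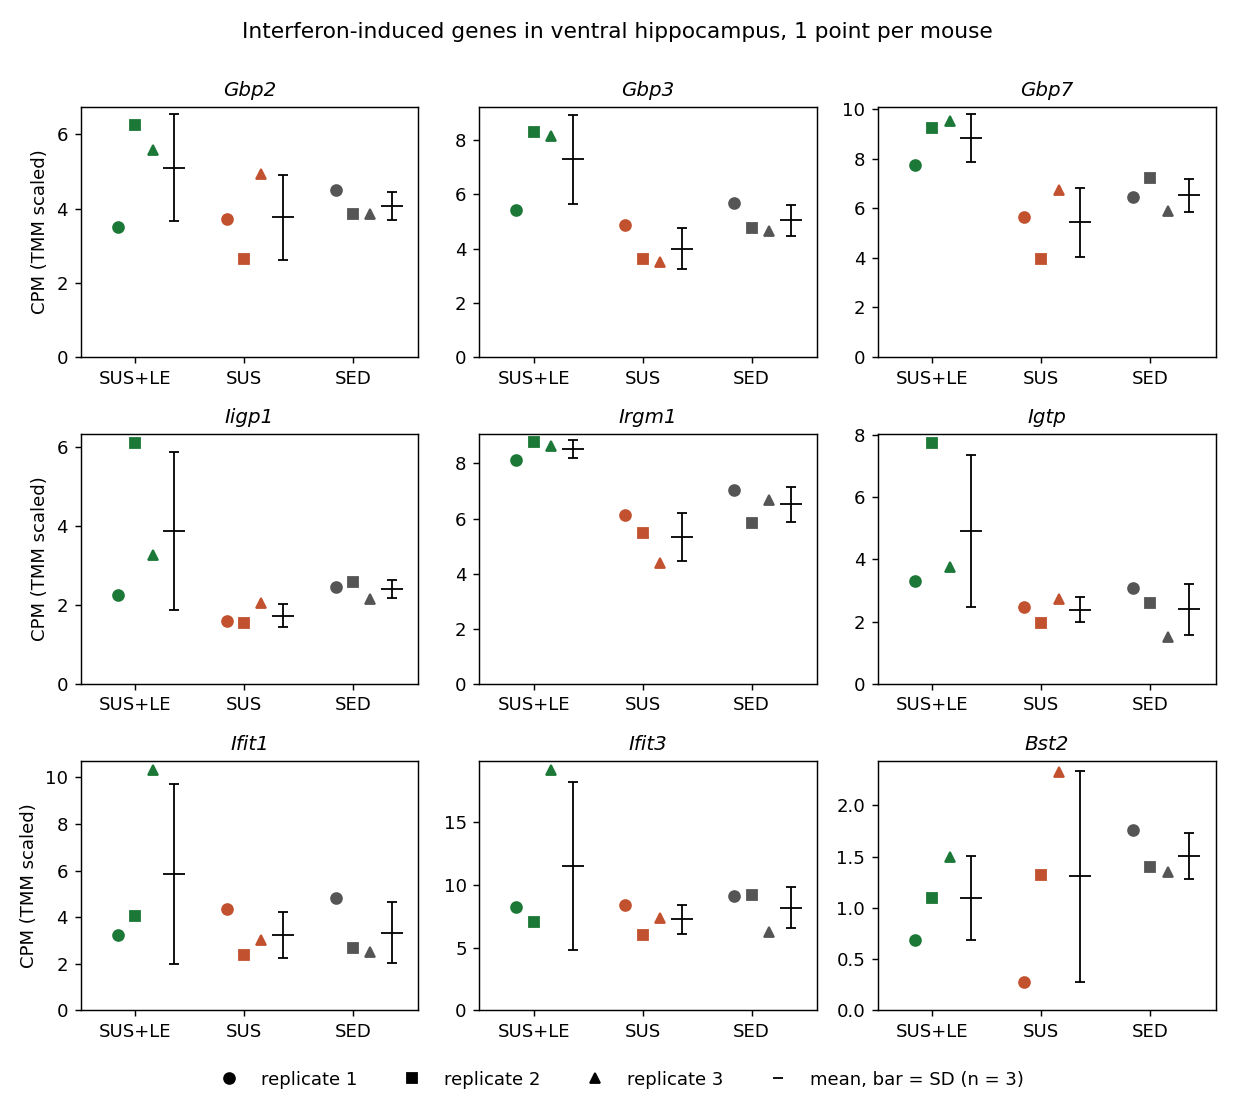
CPM of the 9 genes in each library, with SUS+LE in green, SUS in orange and SED in grey; marker shapes give the replicate number, the dash is the group mean and the bar its SD (n = 3). Gbp3, Gbp7, Iigp1, Irgm1 and Igtp have all 3 SUS+LE points above all 3 SUS points, while Ifit1 and Ifit3 have a single high point in SUS+LE 3.

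Among the guanylate-binding proteins, Gbp3 had 5.41, 8.32 and 8.17 CPM in SUS+LE 1, 2 and 3, against 4.88, 3.61 and 3.50 CPM in SUS 1, 2 and 3. In SED it had 5.69, 4.77 and 4.66 CPM. The SUS+LE and SUS groups did not overlap, while SUS+LE 1 lay below SED 1. The means were 7.30 ± 1.64 CPM in SUS+LE, 3.99 ± 0.769 CPM in SUS and 5.04 ± 0.564 CPM in SED (SD, n = 3). SUS+LE against SUS gave a log2 fold change of 0.87 (SE 0.193, edgeR adjusted p = 0.102). By that test it had rank 39 of the tested genes.

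Gbp7 had 7.73, 9.22 and 9.53 CPM in the SUS+LE libraries, against 5.64, 3.96 and 6.72 CPM in SUS and 6.46, 7.22 and 5.88 CPM in SED. All 3 SUS+LE libraries exceeded all 6 others. The means were 8.83 ± 0.961 CPM in SUS+LE, 5.44 ± 1.39 CPM in SUS and 6.52 ± 0.672 CPM in SED (SD, n = 3), and the SUS and SED libraries overlapped. Gbp7 had a log2 fold change of 0.70 (SE 0.174) against SUS, with an edgeR adjusted p of 0.116. It was 0.51 without SUS 2 and 0.88 without SUS 3. Against SED it was 0.44 (SE 0.171), with an adjusted p of 0.658.

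Gbp2, a family member known to reach pathogen vacuoles early, had 3.49, 6.24 and 5.58 CPM in SUS+LE, against 3.71, 2.64 and 4.93 CPM in SUS and 4.49, 3.85 and 3.85 CPM in SED. SUS+LE 1 was as low as the SUS libraries and SUS+LE 2 and 3 were the 2 highest of the 9, so the groups overlapped. The means were 5.10 ± 1.43 CPM in SUS+LE, 3.76 ± 1.15 CPM in SUS and 4.07 ± 0.370 CPM in SED (SD, n = 3). Its log2 fold change against SUS was 0.44 (SE 0.236, edgeR adjusted p = 0.425). It was 0.24 without SUS 2, 0.27 without SUS+LE 2 and 0.68 without SUS 3.

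Irgm1, a regulatory member of the immunity-related GTPases that controls the other family members, was the steadiest of the 9 genes within SUS+LE. It had 8.14, 8.77 and 8.65 CPM there, against 6.12, 5.48 and 4.39 CPM in SUS and 7.02, 5.82 and 6.69 CPM in SED. All SUS+LE libraries lay above all others, and SUS and SED overlapped. The coefficient of variation was 3.88% in SUS+LE, 16.4% in SUS and 9.56% in SED. Counting error alone at 135 counts, the highest of its libraries, amounted to 8.61%, so the 3 SUS+LE values lay no farther apart than counting error. The means were 8.52 ± 0.331, 5.33 ± 0.876 and 6.51 ± 0.622 CPM in SUS+LE, SUS and SED (SD, n = 3). Against SUS the log2 fold change was 0.68 (SE 0.152, edgeR adjusted p = 0.102), and against SED it was 0.39 (SE 0.149, adjusted p = 0.658).

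Iigp1, an effector GTPase that coats and disrupts pathogen vacuoles, had 2.26, 6.11 and 3.27 CPM in SUS+LE, against 1.58, 1.53 and 2.06 CPM in SUS and 2.46, 2.59 and 2.16 CPM in SED. SUS+LE 2 stood at 2.76 times the median of the other 8 libraries, and all SUS libraries lay below all SED libraries. The means were 3.88 ± 2.00 CPM in SUS+LE, 1.72 ± 0.291 CPM in SUS and 2.40 ± 0.22 CPM in SED (SD, n = 3). Against SUS the log2 fold change was 1.17 (SE 0.310, edgeR adjusted p = 0.138), and 0.68 when SUS+LE 2 was left out.

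Igtp, also known as Irgm3 and like Irgm1 a regulatory member, had 3.29, 7.73 and 3.74 CPM in SUS+LE, against 2.47, 1.94 and 2.74 CPM in SUS and 3.09, 2.59 and 1.49 CPM in SED. SUS+LE 2 stood at 2.9 times the median of the other 8 libraries, and the remaining SUS+LE libraries lay just above the highest SUS and SED values. The means were 4.92 ± 2.44 CPM in SUS+LE, 2.39 ± 0.406 CPM in SUS and 2.39 ± 0.820 CPM in SED (SD, n = 3). Against SUS the log2 fold change was 1.05 (SE 0.341, edgeR adjusted p = 0.207), and 0.56 (adjusted p = 0.501) when SUS+LE 2 was left out.

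Ifit1, whose product binds viral RNA caps that lack host methylation, had 3.22, 4.03 and 10.3 CPM in SUS+LE, against 4.33, 2.36 and 3.02 CPM in SUS and 4.84, 2.66 and 2.5 CPM in SED. SUS+LE 3 held 152 counts, with an exact 95% Poisson interval of 129 to 178 for counting error, and the other 8 libraries held 34 to 69. The other SUS+LE libraries lay within the range of SUS and SED. Means were 5.86 ± 3.90 CPM in SUS+LE, 3.24 ± 1.00 CPM in SUS and 3.34 ± 1.31 CPM in SED (SD, n = 3). The log2 fold change against SUS was 0.85 (SE 0.519, edgeR adjusted p = 0.519), and 0.16 without SUS+LE 3.

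Ifit3, a partner of Ifit1 in the same family, had 8.28, 7.02 and 19.2 CPM in SUS+LE, against 8.39, 6.04 and 7.33 CPM in SUS and 9.13, 9.18 and 6.29 CPM in SED. SUS+LE 3 again stood alone, with 282 counts against 87 to 131 in the other libraries, and SUS+LE 2 was below the SED median. Means were 11.5 ± 6.70 CPM in SUS+LE, 7.25 ± 1.18 CPM in SUS and 8.20 ± 1.66 CPM in SED (SD, n = 3). Its log2 fold change against SUS was 0.66 (SE 0.413, edgeR adjusted p = 0.533), and 0.08 without SUS+LE 3. Of its transcript's 50-base stretches, 51.2% also occur in the copy Ifit3b, so the split of counts between the 2 genes is uncertain. Ifit3b itself had 5.0, 2.99 and 6.88 CPM in SUS+LE, against 3.92, 4.03 and 3.08 CPM in SUS and 3.23, 4.14 and 2.64 CPM in SED.

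Bst2 did not follow the other members. It had 0.684, 1.10 and 1.5 CPM in SUS+LE, against 0.275, 1.32 and 2.33 CPM in SUS and 1.76, 1.40 and 1.35 CPM in SED. The lowest and the highest library were both SUS, with 4 and 34 counts, and the groups overlapped. The means were 1.10 ± 0.407 CPM in SUS+LE, 1.31 ± 1.03 CPM in SUS and 1.5 ± 0.22 CPM in SED (SD, n = 3). At 4 counts the counting error alone was 50%. The log2 fold change against SUS was -0.25 (SE 0.523, edgeR adjusted p = 0.881), and it was 0.46 without SUS 3. With all libraries kept and the choroid plexus score as a covariate it was 0.60, so its direction was not settled.

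Leaving out 1 library at a time changed calls in SUS+LE against SUS in 1 case. Without SUS 1, Gbp3 (log2 fold change 1.04) and Irgm1 (0.79) had edgeR adjusted p of 0.0294 and 0.0378, where 0.508% of tested genes passed. Without the 3 libraries lowest in Ttr, SUS+LE 2 is alone in its group, so no call from that fit is given. SUS+LE 2 was the highest of the 9 libraries for Gbp3, Iigp1 and Igtp, at 8.32, 6.11 and 7.73 CPM. With the choroid plexus score as a covariate, Gbp3, Gbp7, Iigp1 and Irgm1 passed, with adjusted p of 0.0329, 0.0404, 0.0148 and 0.0447, where 2.7% of tested genes passed.

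SUS against SED uses the same SUS libraries as the comparison above, so the values of the 2 comparisons are not independent. Here 0 members passed the adjusted threshold (0% of tested genes), and 0 had an unadjusted edgeR p under 0.05 (13.1% of tested genes in either direction). The fold change was below 0 in 8 of 9 members, against 50.1% of tested genes, and the median was -0.20, against -0.000386 over all tested genes. Iigp1 alone had groups that did not overlap, with SUS lower, which 8.56% of tested genes showed; its log2 fold change was -0.48 (SE 0.327, edgeR adjusted p = 0.565). Gbp3 had -0.33 (SE 0.200, adjusted p = 0.494), Irgm1 -0.29 (SE 0.156, adjusted p = 0.441) and Gbp7 -0.26 (SE 0.178, adjusted p = 0.565). Igtp stood at 0.0019, with SE 0.367. Over left-out libraries the median ran from -0.29 without SUS 1 to -0.081 without SUS 2. Gbp7 ran from -0.44 without SUS 3 to -0.081 without SUS 2, Irgm1 from -0.40 without SUS 1 to -0.17 without SUS 3, and Gbp3 from -0.50 without SUS 1 to -0.24 without SED 1.

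SUS+LE against SED likewise shares libraries with both other comparisons. Choroid plexus marker sums also separated these 2 groups, at 225 to 2290 CPM in SUS+LE and 4430 to 6430 CPM in SED, so group and choroid plexus content went together. Again 0 members passed (0% of tested genes). At an unadjusted p under 0.05, 5 members were higher (Gbp3, Gbp7, Iigp1, Irgm1 and Igtp), against 2.79% of tested genes, and 1 of them, Irgm1, when SUS+LE 2 was left out. The groups did not overlap in 3 members (Gbp7, Irgm1 and Igtp), against 7.54% of tested genes. Igtp had a log2 fold change of 1.05 (SE 0.342, edgeR adjusted p = 0.63), which was 0.56 without SUS+LE 2. Iigp1 had 0.69 (SE 0.298, adjusted p = 0.707), which was 0.20 without that library, and Gbp3 had 0.54 (SE 0.189, adjusted p = 0.63). Without the 3 libraries lowest in Ttr, SUS+LE 2, the highest in Igtp, is the whole SUS+LE group, so no call from that fit is given. Asked for any difference among the 3 groups, edgeR gave 5 members a p under 0.05, the same 5 GTPases, against 13.5% of tested genes, and 0 an adjusted p under 0.05.

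**Figure D3:**
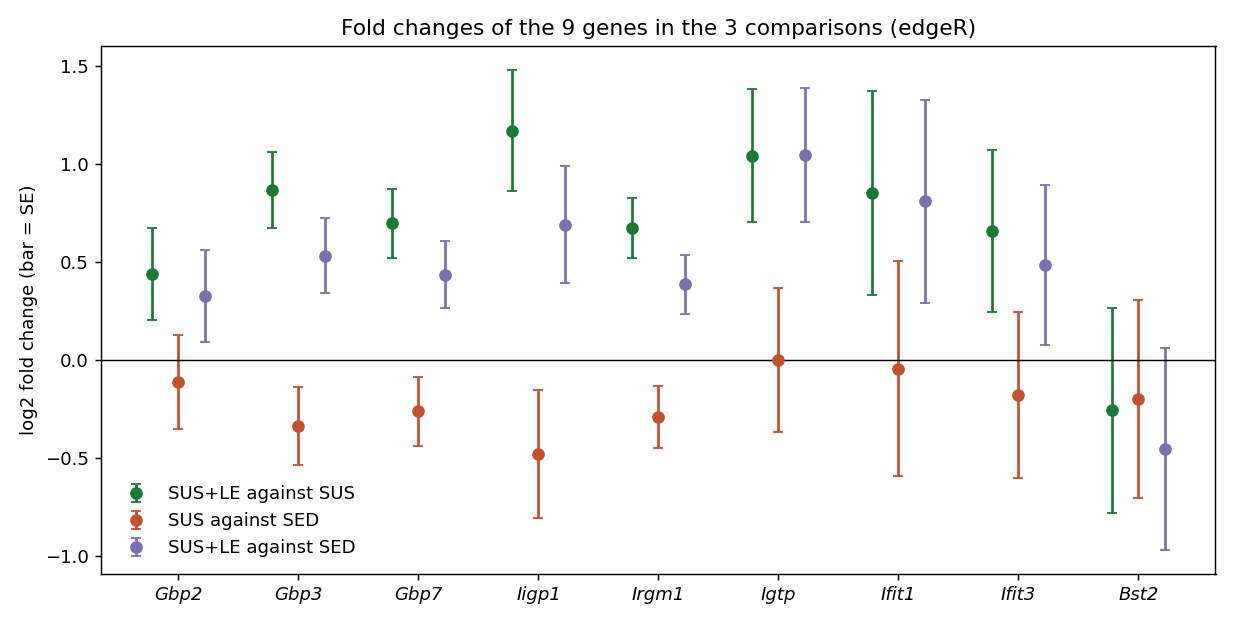
edgeR log2 fold changes (points) and their SE (bars) of the 9 genes in SUS+LE against SUS (green), SUS against SED (orange) and SUS+LE against SED (purple). The 6 GTPases lie above 0 in both SUS+LE comparisons, and Bst2 lies below 0 in all 3.

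The 2 SUS+LE libraries with the highest member levels differed in which members were high. SUS+LE 2 was the highest of the 9 libraries for 5 of the 6 GTPases (10.2% of tested genes were highest there), and SUS+LE 3 was the highest for Gbp7, Ifit1 and Ifit3 (12.1% of tested genes). At the low end, SUS 2 was the lowest library for 5 of the 9 members, 3 of them GTPases, against 10.9% of tested genes. As a mean of log2 CPM centred on the 9 libraries, the 6 GTPases stood at 0.06, 0.78 and 0.44 in SUS+LE 1, 2 and 3. They stood at -0.24, -0.56 and -0.21 in SUS 1, 2 and 3, and at 0.05, -0.07 and -0.26 in SED 1, 2 and 3. Ifit1 and Ifit3 stood at -0.12, -0.08 and 1.31 in SUS+LE, against 0.10, -0.55 and -0.25 in SUS and 0.24, -0.17 and -0.48 in SED. SUS+LE 2 thus led in the GTPases with an IFIT level near the middle, SUS+LE 3 led in the IFIT genes with the next highest GTPase level, and SUS+LE 1 was near the SED libraries in both. These are values of single mice, and no test was made between them.

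**Figure D4:**
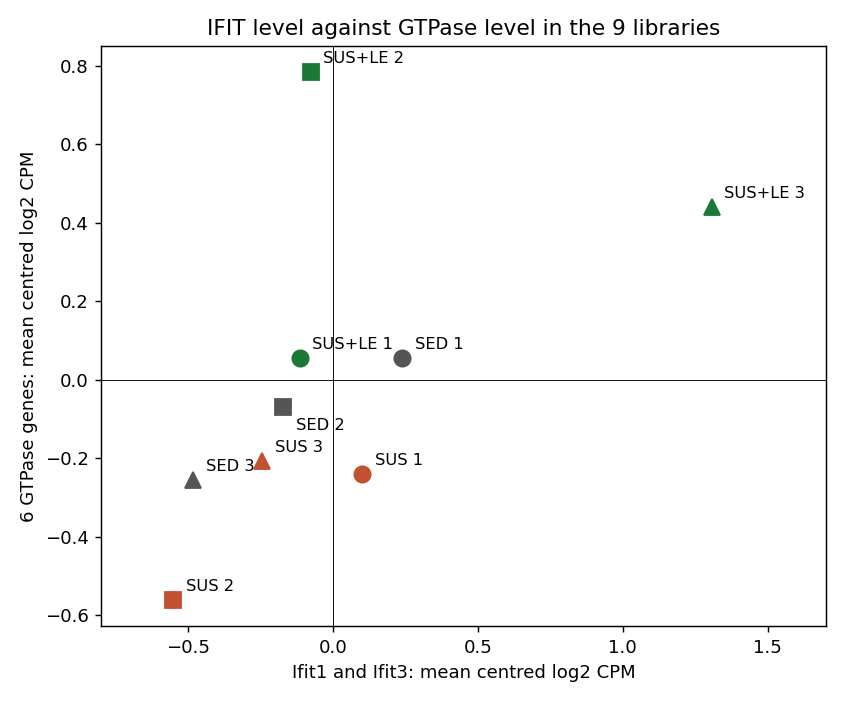
Mean centred log2 CPM of the 6 GTPase genes (y axis) against that of Ifit1 and Ifit3 (x axis), 1 point per library, with SUS+LE in green, SUS in orange and SED in grey. SUS+LE 2 is highest on the y axis at 0.78, and SUS+LE 3 is highest on the x axis at 1.31.

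Relatives outside the 9 members were read in the same way. Of 14 other tested genes of the GBP and IRG families and their neighbours in the list, 9 were highest in SUS+LE 2 and 2 in SUS+LE 3. In SUS+LE 2 all 14 were above the median of the other 8 libraries, with a median ratio of 1.96, and in SUS+LE 3 the median ratio was 1.12. The IFIT, OAS and MX families with Rsad2 and Cmpk2, 10 tested antiviral genes grouped by family name after their values had been seen, had 6 highest in SUS+LE 3 and 1 in SUS+LE 2. Their median ratio was 1.97 in SUS+LE 3 and 0.966 in SUS+LE 2. Among the relatives named by their p, Irgm2, the family's other regulatory member, had 4.31, 8.32 and 5.45 CPM in SUS+LE, against 3.85, 3.54 and 4.11 CPM in SUS and 3.86, 4.77 and 3.18 CPM in SED. Its log2 fold change against SUS was 0.65 (SE 0.224, edgeR adjusted p = 0.203), with no overlap of the groups. Gbp5, known to promote inflammasome assembly, had 4.11, 5.98 and 3.40 CPM in SUS+LE, against 2.47, 2.71 and 2.33 CPM in SUS and 2.25, 3.92 and 3.38 CPM in SED. Its log2 fold change against SUS was 0.85 (SE 0.245, adjusted p = 0.148), also with no overlap. Iigp1c stood at 0.958, 0.844 and 0.749 CPM in SUS+LE, against 0.756, 0.278 and 0.411 CPM in SUS and 0.351, 0.140 and 0.270 CPM in SED. Its log2 fold change was 1.71 (SE 0.519, adjusted p = 0.498) against SED. Over the list, 12 of 14 had fold changes above 0 in SUS+LE against SUS, where 50.3% of tested genes did. Of these, 4 had an unadjusted edgeR p under 0.05, against 7.2% of tested genes, and 0 passed.

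Other relatives are named for their single-library values. Gbp4 reached 13.5 CPM in SUS+LE 2, which was 3.91 times the median of the others, and 3.34 CPM in SUS+LE 3. Oasl2, an OAS-like protein with a ubiquitin-like end, reached 7.76 CPM in SUS+LE 3, which was 2.02 times, and 3.70 CPM in SUS+LE 2. Rsad2, the antiviral enzyme viperin, reached 3.40 CPM in SUS+LE 3 (2.26 times) and 1.36 CPM in SUS+LE 2. Oas2, which makes the second messenger that activates RNase L, reached 1.29 CPM in SUS+LE 3, which was 3.88 times the median of the others but only 19 counts. Tgtp1 and Tgtp2, and Gvin1 and Gvin2, are near-identical pairs whose counts may be split arbitrarily. Gvin1 for example was at 0 counts in SUS 3 and SED 1.

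**Figure D5:**
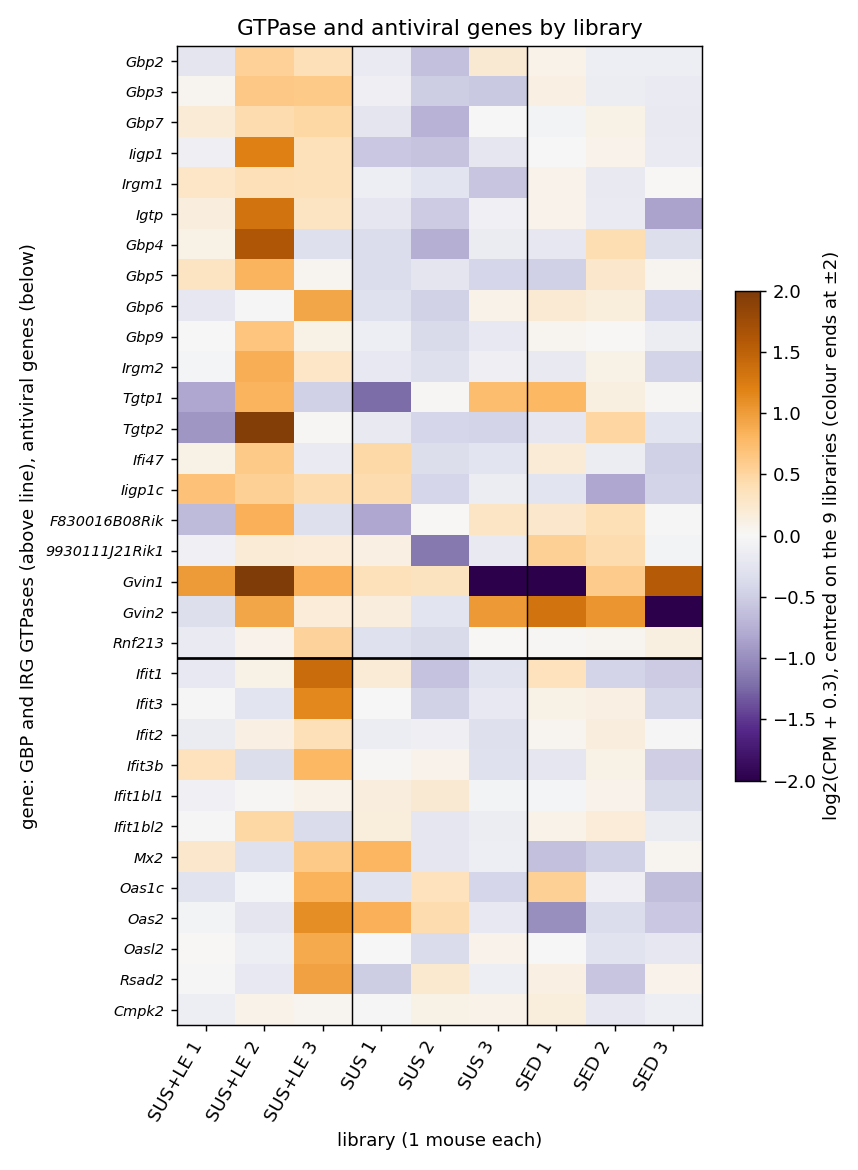
log2(CPM + 0.3) of 20 genes (above the line) and 12 antiviral genes (below it), members included, centred per gene on the 9 libraries. The 20 are GBP and IRG genes and their neighbours in the list, such as Rnf213, Gvin1 and Gvin2. Columns run from SUS+LE to SUS to SED, and the colour scale ends at ±2. The SUS+LE 2 column is darkest orange in the upper block and the SUS+LE 3 column in the lower block.

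Across the 9 libraries the 6 GTPases varied together, with a median Pearson r of 0.756 over their 15 pairs (0.404 to 0.91), and Ifit1 with Ifit3 had r = 0.89. GTPases with Ifit1 or Ifit3 had a median r of 0.52 (0.254 to 0.738), and Bst2 with the other 8 members had 0.024 (-0.247 to 0.296). The highest pair was Gbp3 with Irgm1, at 0.91, and the lowest within the GTPases was Gbp2 with Irgm1, at 0.404. The points of each correlation share libraries, depth and the group differences, so these are descriptions over 9 libraries. Irgm1 had 0 of its 50-base stretches in another gene. Igtp shares 12.3% of its stretches with Irgm2, Gbp7 shares 12.8% with other genes, mainly the predicted gene Gm43802, and Gbp3 shares 4.79%.

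Levels compared between genes need the transcript length. The length used was that of each gene's longest GENCODE transcript, so the order of the genes depends on that choice. Per kilobase of transcript, Ifit3 was the most abundant member, at 6.59 CPM in SUS+LE, 4.16 CPM in SUS and 4.70 CPM in SED. Its level is uncertain, because 51.2% of its 50-base stretches also occur in Ifit3b. Gbp3 had 2.72, 1.49 and 1.88 CPM per kilobase in SUS+LE, SUS and SED, and Igtp had 2.43, 1.18 and 1.18. Iigp1 was the least abundant in all 3 groups, at 1.24, 0.552 and 0.770 CPM per kilobase in SUS+LE, SUS and SED. Bst2, with the shortest transcript, had 1.38, 1.65 and 1.90 CPM per kilobase in SUS+LE, SUS and SED. That was within the range of the GTPases in SUS+LE and above all 6 of them in SUS and SED.

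Interferon transcripts themselves were at the edge of detection. The 21 ligand genes in the files summed to 1 to 3 counts in the SUS+LE libraries, 0 to 1 in SUS and 0 to 2 in SED, and 0 of them passed the filter. Ifnb1, the first type I interferon made after infection, had 0 counts in all 9 libraries, which allows up to 0.195 to 0.211 CPM in a library. Ifng, the type II interferon, had 1 count in SUS 1 and in SUS 3 and 0 elsewhere.

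The receptors were well measured and lay close together: their summed level was 110 to 118 CPM in SUS+LE, 102 to 117 CPM in SUS and 113 to 122 CPM in SED. Of 5 tested receptor genes 0 had an unadjusted p under 0.05 in any comparison. Of all tested genes 13.7% had one in SUS+LE against SUS, 13.1% in SUS against SED and 6.64% in SUS+LE against SED. Ifngr2, the signalling chain for type II interferon, had 37.2, 42.9 and 38.1 CPM in SUS+LE, against 34.0, 37.5 and 37.7 CPM in SUS and 39.3, 40.1 and 40.6 CPM in SED. SUS lay wholly below SED there, with a log2 fold change of -0.14 (SE 0.0736, edgeR adjusted p = 0.44). Ifnar1 of the type I receptor had log2 fold changes of 0.05 (SE 0.0755) in SUS+LE against SUS and -0.11 (SE 0.0755) in SUS against SED. Il10rb, shared by the type III receptor, had 0.06 (SE 0.139) and -0.20 (SE 0.138).

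Of 14 tested JAK, STAT and IRF genes, 0 passed the adjusted threshold. In SUS+LE against SUS 2 had an unadjusted p under 0.05 and higher values, and 1 lower values, against 7.2% and 6.49% of tested genes. Irf7, the factor that amplifies type I interferon responses and is itself induced by them, had 1.51, 1.82 and 2.93 CPM in SUS+LE, against 0.894, 0.763 and 1.03 CPM in SUS and 1.97, 0.911 and 0.406 CPM in SED. SUS+LE and SUS did not overlap, SUS+LE 3 was the highest library, and SED held the lowest value and overlapped both other groups. The log2 fold change against SUS was 1.21 (SE 0.432, edgeR adjusted p = 0.228). Jak1, the kinase common to all interferon receptors, had a log2 fold change of 0.13 (SE 0.056, adjusted p = 0.325), and Irf3, the constitutive factor behind the first interferon made, had -0.33 (SE 0.144, adjusted p = 0.323). Against SUS, Stat2 stood at 0.12 (SE 0.0923), Irf9 at 0.29 (SE 0.157) and Irf1, which drives many of the GTPase genes, at 0.32 (SE 0.183).

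Of 16 tested nucleic acid sensors and adaptors, 0 passed. At an unadjusted p under 0.05, 4 were higher in SUS+LE than in SUS and 0 lower, against 7.2% and 6.49% of tested genes. Aim2, a cytosolic DNA sensor, had 5.95, 4.81 and 5.04 CPM in SUS+LE, against 3.64, 4.23 and 2.88 CPM in SUS and 3.79, 4.21 and 3.18 CPM in SED. All SUS+LE libraries lay above the rest, with a log2 fold change against SUS of 0.55 (SE 0.192, edgeR adjusted p = 0.208). Sting1, the adaptor of the DNA-sensing pathway, had 0.57 (SE 0.266, adjusted p = 0.352), and Tlr7, an endosomal RNA sensor, had 0.51 (SE 0.221, adjusted p = 0.325). Of 13 tested negative regulators 0 passed, with 7 above and 6 below 0, where 50.3% of tested genes were above 0. Pias4, an inhibitor of JAK-STAT signalling, had a log2 fold change of -0.40 (SE 0.122, adjusted p = 0.169) against SUS. Cish had -0.27 (SE 0.273) and Ptpn6 -0.30 (SE 0.228). Isg15, a ubiquitin-like modifier that is among the commonest interferon markers, had 0.958, 0.390 and 2.04 CPM in SUS+LE, against 1.03, 0.763 and 0.343 CPM in SUS and 1.12, 0.561 and 0.879 CPM in SED. SUS+LE 2, which was highest in the GTPases, was next to lowest for Isg15.

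Of 66 other tested interferon-stimulated genes, 0 passed in SUS+LE against SUS. Fold changes were above 0 in 49 and below 0 in 17, where 50.3% of all tested genes were above 0. At an unadjusted edgeR p under 0.05, 10 were higher, against the 7.2% above, and 3 were lower, against 6.49% of tested genes. The median log2 fold change of the 66 was 0.17. H2-D1, B2m and Ifitm3 are named for the smallest p of the list in the test among the 3 groups, so they do not stand for the list. H2-D1, a class I antigen-presenting molecule, had 18.9, 21.6 and 19.6 CPM in SUS+LE, against 14.9, 13.3 and 16.2 CPM in SUS and 12.8, 15.4 and 13.2 CPM in SED. Its partner chain B2m had 74.1, 83.8 and 91.1 CPM in SUS+LE, against 64.1, 61.3 and 72.4 CPM in SUS and 68.9, 64.8 and 63.7 CPM in SED. For both genes every SUS+LE library exceeded the other 6. The log2 fold changes against SUS were 0.43 (SE 0.107, edgeR adjusted p = 0.116) for H2-D1 and 0.33 (SE 0.0763, adjusted p = 0.107) for B2m. Ifitm3, a membrane protein that blocks viral entry, had 0.62 (SE 0.155, adjusted p = 0.116), again with no overlap. Cxcl10, a chemokine that draws T cells, had 0 counts in SUS+LE 2 and at most 1.29 CPM, in SUS+LE 3.

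The genes whose levels ran most like the mean of the 9 members over the 9 libraries, among 15091 candidates, were Rars (r = 0.937), Uba2 (0.932), Pear1 (0.93), B2m (0.926), Rsu1 (0.919), Gm2061 (0.913), Gm10710 (0.912) and Ubfd1 (0.91). When SUS+LE 3 was left out these r ranged from 0.873 for B2m to 0.921 for Ubfd1. B2m was the only interferon-stimulated gene of the lists among the 8.

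Cell type markers are given beside these levels, because in bulk tissue fewer cells of a type and less RNA per cell cannot be told apart. Microglia markers, 14 of 14 detected in every library, summed to 293 to 328 CPM in SUS+LE, 289 to 324 CPM in SUS and 294 to 304 CPM in SED. Brain endothelium markers summed to 699 to 720, 696 to 801 and 717 to 758 CPM in SUS+LE, SUS and SED, although 7 of 15 had an unadjusted p under 0.05 with higher values in SUS+LE than in SUS, against the 7.2% of tested genes above. The 1 marker with such a p and lower values was Bsg, which encodes the surface protein basigin and gave the largest part of the sum, with means of 287 CPM in SUS+LE, 367 CPM in SUS and 346 CPM in SED. Its log2 fold change against SUS was -0.35 (SE 0.0706, edgeR adjusted p = 0.0922). The other 14 markers summed to 417 to 434 CPM in SUS+LE, above the 342 to 391 CPM in SUS and the 382 to 399 CPM in SED. That split was made after the values were seen and takes out the marker that was lower at such a p, so it is not a test. Of all 15 markers, 11 had fold changes above 0 in SUS+LE against SUS and 4 below 0. Besides Bsg, means were lower in SUS+LE than in SUS for Cldn5 (13.4 against 14.1 CPM), Kdr (19 against 19.7 CPM) and Egfl7 (11.1 against 11.6 CPM). Ly6a and Ly6c1, surface proteins in that list that are also interferon-induced, had log2 fold changes of 0.49 (SE 0.145, edgeR adjusted p = 0.158) and 0.42 (SE 0.130, adjusted p = 0.174). Astrocyte markers summed to 5590 to 5830 CPM in SUS+LE, above the 5150 to 5320 CPM in SUS and level with the 5510 to 5780 CPM in SED. Slc1a2 gave the largest part of that sum, with means of 3990 CPM in SUS+LE, 3590 CPM in SUS and 4000 CPM in SED. Of the 11 astrocyte markers, 7 had fold changes above 0 in SUS+LE against SUS and 4 below 0, with a median log2 fold change of 0.048. At an unadjusted edgeR p under 0.05, 4 of the 11 were higher and 1 lower there, against 7.2% and 6.49% of tested genes. In SUS against SED 6 were above 0 and 5 below 0, with a median of 0.0797. T and NK cell markers were near 0 throughout, with 22 to 28 counts over 12 genes in SUS+LE, 27 to 34 in SUS and 26 to 30 in SED, and Cd3d at 0 in all 9 libraries. B and plasma cell markers summed to 48 counts in SUS+LE 3, of which Jchain gave 37, and to 5 to 16 counts in the other 8 libraries. Neutrophil markers summed to 38, 12 and 16 counts in SUS+LE, 10, 2 and 14 in SUS and 6 in each SED library. The part of these cell types in the member levels was not tested.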

How the data were processed

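Total RNA of ventral hippocampus from 9 mice was sequenced, 1 library each. Each deposited file holds whole-number counts by gene symbol, which the authors made with fastp, STAR and Salmon on GRCm39, per the submitters' processing notes. Versions, annotation and strand setting are not given in the sources used here, and whether the whole-number counts were rounded from Salmon estimates is not stated either. Reads of overlapping genes (Ifit1 with Ifit1bl1, Gbp3 with Gm40158, Gbp2 with Mir6381) may therefore be shared. Replicate numbers of SUS+LE are those of the labels (1 to 3), where the files' headers count from 2 to 4. Columns of other samples numbered 0.

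Counts were filtered by edgeR's expression filter and scaled by TMM, which left 16106 of 40213 genes with 99.9% of counts. A robust quasi-likelihood model (edgeR 4.0.16, R 4.3.3) with group as its only term was fitted to all 9 libraries. P-values were adjusted by Benjamini-Hochberg over all tested genes, with a threshold of 0.05, and the common biological coefficient of variation was 0.0845. An exact permutation test of 3 against 3 cannot go below 0.1, so single genes rest on this model. DESeq2 1.42.0 and limma 3.58.1 were alternatives, with other filters, scalings, covariates and left-out libraries. The script was tested on simulated data.

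The members and gene lists were chosen with earlier results of these data known. Named besides the members were the 3 genes of each pathway list with the smallest p among the 3 groups, Ifng, Ifnb1, Stat2, Irf1, Irf7, Irf9, Isg15, Irgm2 and Cxcl10, and the 8 genes most like the members' mean; 1 further gene of this rule is not reported here. The lists of mural cells, oligodendrocytes, border macrophages, meningeal fibroblasts and erythrocytes are described in the closing section. Other genes named were chosen after their values were seen. Intervals and floors cover counting error only, and floors are 3 counts. Motifs were searched in RefSeq promoters of GRCm38.p6, and shared stretches of 50 bases in GENCODE transcripts.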

Additional observations from a re-analysis of the deposited data

How the results depend on the processing

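The median log2 fold change of the members kept its sign in every alternative run, between 0.61 and 0.85 in SUS+LE against SUS, and the count of members past the adjusted threshold moved. Without the low-count filter, which raised the tested genes to 26992, 5 members passed in SUS+LE against SUS (Gbp3, Gbp7, Iigp1, Irgm1 and Igtp) among 430 genes (1.59%). In that run 1 member passed in SUS+LE against SED (Igtp), with 0.808% of tested genes, and 5 in the test among 3 groups, with 2.57%. The choroid plexus covariate gave 4 and 1 in the first and last of these, among 435 and 196 genes (2.7% and 1.22% of 16106 tested). Leaving out the 3 libraries lowest in Ttr left 1 SUS+LE library, so no count is given for it. Leaving out each library in turn gave 0 to 2 in SUS+LE against SUS and 0 in the other tests. The causes were not tested.

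Signs turned for Bst2, Ifit3, Igtp, Ifit1 and Gbp2. For Bst2 the log2 fold change was 0.60 in SUS+LE against SUS, 0.11 in SUS against SED and 0.72 in SUS+LE against SED with the choroid plexus covariate, and 0.28 in SUS against SED without the low-Ttr libraries. Over left-out libraries Bst2 ran from -0.73 to 0.46 in SUS+LE against SUS and from -0.91 to 0.28 in SUS against SED. In SUS+LE against SED Ifit3 was -0.22 without the low-Ttr libraries, and -0.10 to 0.75 over left-out libraries. In SUS against SED Igtp, near 0, was -0.0018 with DESeq2 with or without its filter, -2.6e-05 with DESeq2 size factors, -0.0017 without a filter, -0.00010 with 2 groups fitted, -0.027 without low-Ttr libraries and -0.018 with GC and length trends removed. Ifit1 was 0.011 with those trends removed. Over left-out libraries Igtp ran from -0.25 to 0.23, Ifit1 from -0.31 to 0.32 and Gbp2 from -0.36 to 0.085.

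The replicate numbers did not pair the samples: over 9 same-number pairs the deviations correlated at -0.12 to 0.18, with 2 over 0.1. With a replicate block 0 members passed in any test, and the median was 0.70 in SUS+LE against SUS. DESeq2 with its default filter gave the members no adjusted p in SUS+LE against SUS, SUS against SED or the test among 3 groups, so no count is given for it there. Other prior counts and scalings moved no library's member score by more than the spread within groups (0.266). The GC and length step, matched for 91.3% of tested genes, was chosen after seeing the data. Members held 4 to 282 counts per library, which limits Bst2 most.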

Other observations

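Marker lists of other cell types were read beside the members. Mural cell markers summed to 363 to 431 CPM in SUS+LE, 257 to 387 CPM in SUS and 357 to 404 CPM in SED, and meningeal fibroblast markers to 280 to 377, 265 to 581 and 397 to 446 CPM. Border macrophage and monocyte markers summed to 12.0 to 14.0 CPM in SUS+LE, 6.94 to 15.1 CPM in SUS and 9.81 to 13.2 CPM in SED. SUS 2 had the lowest sum of the 9 libraries for mural cells, meningeal fibroblasts and border macrophages (257, 265 and 6.94 CPM). It was also the lowest library for 7 of 15 brain endothelium markers, against 10.9% of tested genes. The part of these cell types in the member levels of SUS 2 was not tested. Cd163, a scavenger receptor of border macrophages, had a log2 fold change of 1.06 in SUS+LE against SUS (SE 0.366, edgeR adjusted p = 0.203), with no overlap. Oligodendrocyte markers summed to 2500 to 3120 CPM in SUS+LE, 2470 to 2820 CPM in SUS and 2910 to 3130 CPM in SED. All 8 tested had fold changes below 0 in SUS against SED, where 50.1% of tested genes did, with 0 past the adjusted threshold. Mbp, a main myelin protein, had -0.23 there (SE 0.0839, adjusted p = 0.267). Erythrocyte markers summed to 113 to 182 CPM in SUS+LE, 151 to 265 CPM in SUS and 163 to 172 CPM in SED. All 5 tested had fold changes below 0 in SUS+LE against SUS, where 49.7% of tested genes did. Of these, 3 had an unadjusted edgeR p under 0.05, against 6.49% of tested genes, and 0 passed.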
